A study of Mus musculus with 8 samples.

Results

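The 40 genes of this group comprise 25 genes of mitosis and 15 genes of the S phase, when DNA is copied. They were chosen by symbol for their roles, with earlier results of these data known, and all 40 were present among the 24940 genes of the table. Livers of 4 FXRKO males were compared with livers of 4 BCL6LKOFXRKO males by RNA sequencing, all C57BL/6. Both genotypes carried floxed Bcl6 alleles and were homozygous for the FXR deletion, which affects the whole body. Only BCL6LKOFXRKO mice also carried the Alb-Cre transgene, in which the albumin promoter drives Cre recombinase in hepatocytes and so removes Bcl6 there. FXR (gene Nr1h4) is the nuclear receptor that senses bile acids, and BCL6 is a transcriptional repressor. The FXRKO mice had no Cre, so an effect of Cre itself and one of Bcl6 loss cannot be told apart. The livers are numbered 1 to 4 (FXRKO) and 5 to 8 (BCL6LKOFXRKO), as in the labels, which give each its own animal identifier and no age.

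Most hepatocytes of an adult liver are quiescent, so the cell cycle genes are expressed there at low levels. Cells that enter the cycle first express the machinery that licenses and copies DNA (the MCM helicase, PCNA and the enzymes that supply nucleotides), largely under E2F factors. The genes of mitosis follow later, under the MuvB complex with MYBL2 and FOXM1, through 2 promoter elements, the cell cycle genes homology region (CHR) and the CCAAT box bound by NF-Y. In quiescent cells MuvB, within the DREAM complex, holds these genes off through the CHR. Hepatocytes can also copy their DNA without dividing and become polyploid.

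Promoter sequences from RefSeq (GRCm38.p6) are shown because these elements set the mitotic genes apart from the S-phase genes in textbook accounts. Of the 40 genes, 34 had an entry. Those without one were Aurkb, Ccna2, Ccne2, Kif20a, Mcm4 and Tpx2. In the 250 bases before the start, searched on both strands, the CHR word TTTGAA was found in 9 of 21 mitotic promoters (42.9%) and in 1 of 13 S-phase promoters (7.69%), against 14.1% of all 18062 promoters matched to a gene of the table. The word CCAAT was found in 18 of the mitotic promoters (85.7%) and in 8 of the S-phase promoters (61.5%), against 35.9% of all promoters. Any of the E2F words TTTCCCGC, TTTCGCGC, TTTGCCGC and TTTGGCGC was found in 1 mitotic promoter (4.76%) and in 4 S-phase promoters (30.8%), against 2.32% of all promoters. Both CHR and CCAAT were found in 9 of the 21 mitotic promoters, against 5.22% of all promoters. A match describes these letters and is no evidence of binding. The last 120 bases before the start are printed 5′ to 3′ on the strand of the gene, with every match in either orientation in capitals, for 3 mitotic genes that were higher in BCL6LKOFXRKO livers and for 2 S-phase genes, 1 with E2F words and 1 that was lower.
Mki67 (chr7:135716380-135716499, minus strand): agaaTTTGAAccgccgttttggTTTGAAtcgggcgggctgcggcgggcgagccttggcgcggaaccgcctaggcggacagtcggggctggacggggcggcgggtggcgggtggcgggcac
Top2a (chr11:99024190-99024309, minus strand): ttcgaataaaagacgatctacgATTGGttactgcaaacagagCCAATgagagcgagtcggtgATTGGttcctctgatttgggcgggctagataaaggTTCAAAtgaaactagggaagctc
Cdc20 (chr4:118437344-118437463, minus strand): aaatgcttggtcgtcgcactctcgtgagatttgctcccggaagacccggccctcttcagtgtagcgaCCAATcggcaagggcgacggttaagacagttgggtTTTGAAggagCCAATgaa
Mcm6 (chr1:128359706-128359825, minus strand): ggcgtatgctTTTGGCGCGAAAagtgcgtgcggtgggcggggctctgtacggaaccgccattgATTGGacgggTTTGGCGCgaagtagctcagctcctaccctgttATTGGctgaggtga
Tk1 (chr11:117826015-117826134, minus strand): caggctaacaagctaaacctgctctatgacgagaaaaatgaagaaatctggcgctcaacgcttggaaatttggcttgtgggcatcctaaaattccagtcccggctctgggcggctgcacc
In Mki67 the capitals are 2 CHR words, at 116 and 98 bases before the start. Top2a holds 3 CCAAT words and then a CHR word in reverse, and Cdc20 a CCAAT word, a CHR word and another CCAAT word. Mcm6 holds E2F words, the first pair overlapping each other, and 2 CCAAT words in reverse. None of the searched words was found in this stretch of Tk1. The 3 mitotic genes shown all hold a CHR word, as does Kif11, also called higher. Whether the CHR word goes with the calls was not tested, and these genes are few. It was absent from the promoters of Bub1b and Prc1, which were called higher. It was present in those of Ccnb2, Cdk1 and Ube2c, not called, and of Espl1 and Ncapg, not tested. Promoters without it were also those of Aurka, Birc5, Kif23, Nusap1, Plk1 and Pttg1, not called, and of Bub1, Ccnb1, Cenpe and Cenpf, not tested.

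The livers had between 7586241 and 11839503 counted reads, and 3 reads in a liver correspond to between 0.272 and 0.375 CPM, the usual unit of reads relative to library size, here scaled by TMM factors. Bcl6 was at 56.3, 65.2, 21.2 and 55.6 CPM in FXRKO livers 1 to 4 and at 11.9, 4.61, 5.55 and 7.72 CPM in BCL6LKOFXRKO livers 5 to 8 (log2 fold change −2.72, SE 0.40, adjusted p = 0.00123). Nr1h4 was counted in both genotypes, at 56.7 to 62.6 CPM in FXRKO livers and at 39.4 to 48.1 CPM in BCL6LKOFXRKO livers. It was called lower in the latter (log2 fold change −0.46, SE 0.10, adjusted p = 0.00497), and counts per whole gene do not show which exons were read. The 50 most counted genes took 29.8 to 31.2% of the reads in FXRKO livers and 40.7 to 44.1% in BCL6LKOFXRKO livers. Scaling by library totals alone shifted the log2 fold changes by −0.16. The 7 hepatocyte markers matched were counted in every liver, but not at equal levels. Alb was at 38238 to 48536 CPM in FXRKO livers and at 127793 to 146953 CPM in BCL6LKOFXRKO livers, the other 6 summed to 17070 to 19420 CPM against 14178 to 17114 CPM, and 5 of the 7 had a negative log2 fold change.

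Transcripts of mitosis lay mostly higher in BCL6LKOFXRKO livers, whereas those of S phase lay on both sides of 0. With no filter on low counts, 24 of the 25 mitotic genes had a positive log2 fold change (BCL6LKOFXRKO over FXRKO), with a median of 0.97, and 7 were called higher at an adjusted p under 0.05 by the edgeR quasi-likelihood test. Among all 17796 genes with a count 9502 were positive and 8294 negative, the median was 0.05, and 11.6% were called higher and 9.77% lower. Of the 15 S-phase genes, 8 were positive and 7 negative, with a median of 0.04. None of the 15 was called higher and 1 was called lower. The difference between both groups of genes was not tested.

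After the standard filter, 12340 genes were tested, of which 16.2% were called higher and 13.5% lower in BCL6LKOFXRKO livers, with a median log2 fold change of 0.01. In 16.1% of them all BCL6LKOFXRKO livers lay above all FXRKO livers, and in 15.2% all lay below. Of the 25 mitotic genes 18 passed, of which 8 were called higher, 0 lower and 10 were not called. At an unadjusted p under 0.05, 12 were higher and 1 lower, and DESeq2 called 7 higher and 0 lower. For these counts the share of all genes was not determined, so they have no background to be read against. The filter asked for about 1.04 CPM in 4 livers. In all 8 livers 8 mitotic genes exceeded it, and 4 of these were called higher. The other 4 calls exceeded it in all 4 BCL6LKOFXRKO livers but in only 3 (Cdc20 and Kif11), 2 (Tpx2) or 0 (Bub1b) FXRKO livers, so they entered the test through the group where they are high. A filter on the mean over the 8 livers, chosen after seeing the data, let 19 mitotic genes pass and called 8 of them higher. In bulk tissue, more cycling cells and more RNA per cycling cell cannot be told apart.

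**Figure D1:**
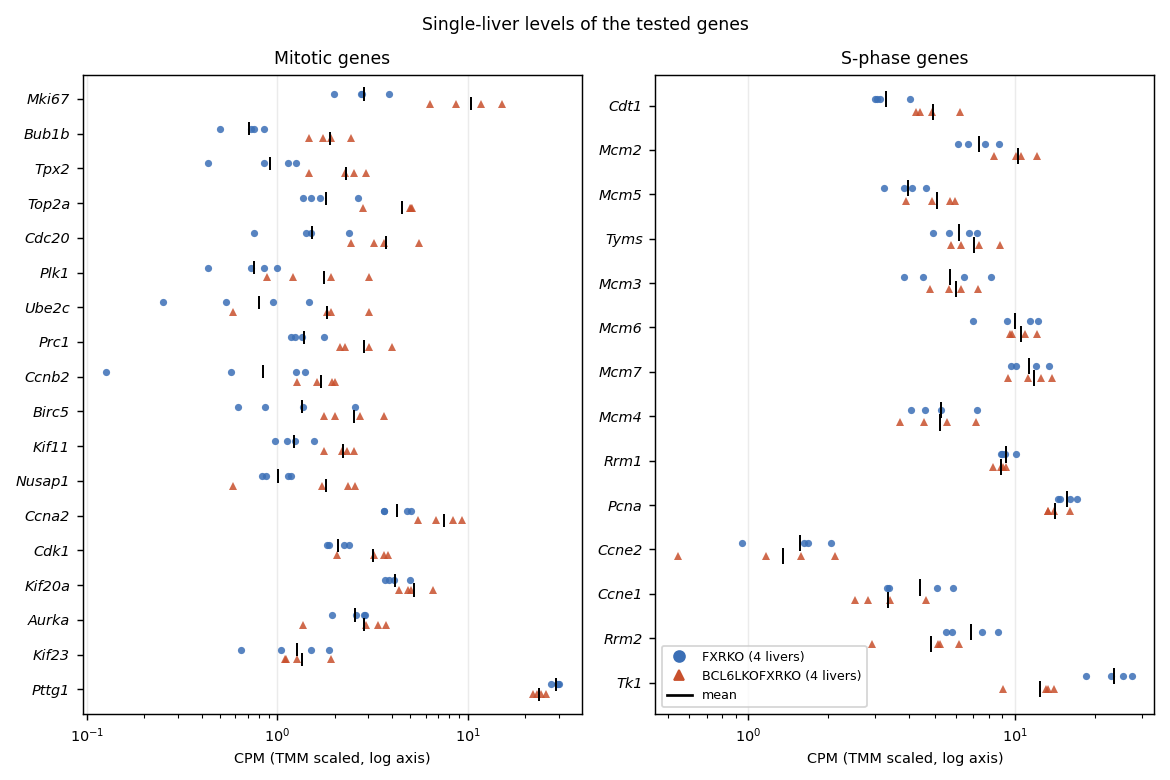
CPM (log axis) of the 18 mitotic and 14 S-phase genes tested, ordered by fold change, with 1 point per liver (circles FXRKO, triangles BCL6LKOFXRKO) and a bar at the mean of 4 livers. The triangles lie wholly to the right of the circles for 8 mitotic genes and for Cdt1, and wholly to the left for Pttg1 and Tk1.

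Mki67 encodes Ki-67, the protein that coats mitotic chromosomes and is stained to count cycling cells. It was at 3.85, 2.75, 2.79 and 1.99 CPM in FXRKO livers and at 15.1, 11.7, 6.33 and 8.63 CPM in BCL6LKOFXRKO livers. Every BCL6LKOFXRKO liver exceeded every FXRKO liver, with liver 5 the highest and liver 7 the lowest of its genotype. The gene (chromosome 7, 135689788 to 135716379) rose by 1.87 on the log2 scale (SE 0.29, adjusted p = 0.000367), the largest change among the 32 genes tested. Its mean went from 2.85 ± 0.77 to 10.4 ± 3.8 CPM (SD, n = 4).

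Top2a encodes topoisomerase II alpha, which untangles sister chromatids. It was at 1.67, 1.37, 1.5 and 2.65 CPM in FXRKO livers and at 5.04, 5.1, 2.82 and 4.99 CPM in BCL6LKOFXRKO livers. Livers 5, 6 and 8 stood close together and liver 7 lay just above the highest FXRKO liver. The log2 fold change was 1.29 (SE 0.28, adjusted p = 0.00442). Ccna2 encodes cyclin A2, which works from S phase into mitosis. It was at 4.79, 3.62, 3.65 and 5.01 CPM against 8.36, 6.8, 5.45 and 9.35 CPM, so that here too liver 7 came nearest to the FXRKO livers. It rose by 0.81 (SE 0.21, adjusted p = 0.0134), and 12.5% of its exon bases are shared with Exosc9 on the opposite strand.

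Bub1b and Cdc20 act in the spindle assembly checkpoint, which delays anaphase until all chromosomes are attached, and both rose. Bub1b, the checkpoint kinase BUBR1, was at 0.728, 0.5, 0.752 and 0.852 CPM in FXRKO livers and at 1.91, 2.43, 1.46 and 1.73 CPM in BCL6LKOFXRKO livers. The groups were apart, but on 4 to 9 reads per FXRKO liver and 15 to 20 per BCL6LKOFXRKO liver. The log2 fold change was 1.36 (SE 0.32, adjusted p = 0.006). Bub1b passed the filter through the BCL6LKOFXRKO livers alone, and with no filter its adjusted p was 0.0108. Cdc20 encodes the activator of the anaphase-promoting complex that the checkpoint holds back. It was at 2.39, 1.5, 0.752 and 1.42 CPM against 3.22, 3.64, 2.44 and 5.54 CPM. FXRKO liver 1 and BCL6LKOFXRKO liver 7 nearly touched, and the log2 fold change was 1.29 (SE 0.35, adjusted p = 0.0148). Bub1, the partner kinase, was too low to test, with 0 to 3 reads per FXRKO liver and 1 to 6 per BCL6LKOFXRKO liver.

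Motors and microtubule proteins of the spindle were also among the genes called. Tpx2, which nucleates spindle microtubules and activates Aurora A, was at 1.14, 1.25, 0.43 and 0.852 CPM in FXRKO livers and at 2.52, 2.91, 1.46 and 2.27 CPM in BCL6LKOFXRKO livers (log2 fold change 1.31, SE 0.35, adjusted p = 0.014). Prc1, which bundles the microtubules of the central spindle, was at 1.35, 1.75, 1.18 and 1.23 CPM against 3.02, 4, 2.14 and 2.27 CPM (log2 fold change 1.04, SE 0.29, adjusted p = 0.0165). In both genes liver 6 was the highest and liver 7 the lowest of the BCL6LKOFXRKO livers. Of the exon bases of Prc1, 11.1% are shared with Rccd1 on the opposite strand. Without liver 6 its adjusted p was 0.0501. Kif11, the kinesin that pushes the spindle poles apart, was at 1.56, 1.12, 0.967 and 1.23 CPM against 2.32, 2.18, 1.75 and 2.54 CPM (log2 fold change 0.84, SE 0.27, adjusted p = 0.0356). This call was the least firm of the 8, since it was lost with DESeq2 (adjusted p = 0.0958), with library totals alone (0.0707), with no filter (0.07) and when any of livers 2, 3, 4, 5, 6 and 8 was left out (0.0598 to 0.099). For each of these 8 genes the groups did not overlap, which gives a two-sided exact permutation p of 0.029, the smallest that 70 orderings of 8 livers allow. The 8 were picked by their calls on the same livers, so this p is no separate support. Of all genes tested, 16.1% were likewise apart upward and 15.2% downward.

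Cdk1, Plk1 and Aurka, kinases that drive mitosis, did not pass the test. Cdk1, the catalytic partner of the mitotic cyclins, was at 1.87, 2.25, 1.83 and 2.37 CPM in FXRKO livers and at 3.22, 3.64, 2.05 and 3.81 CPM in BCL6LKOFXRKO livers. Only liver 7 lay within the FXRKO range (log2 fold change 0.61, 95% interval 0.10 to 1.12, adjusted p = 0.0958). Plk1, polo-like kinase, was at 0.728, 1, 0.43 and 0.852 CPM against 1.21, 3.03, 0.877 and 1.91 CPM (log2 fold change 1.19, SE 0.43, adjusted p = 0.0534). Again only liver 7 overlapped. Aurka, Aurora A, lay at 1.93 to 2.87 CPM in FXRKO livers and at 1.36 to 3.73 CPM in BCL6LKOFXRKO livers, with a log2 fold change of 0.15 (95% interval −0.45 to 0.74), which was −0.01 with library totals alone. Aurkb, Aurora B of the chromosomal passenger complex, was not tested, at 0.125 to 0.852 CPM against 0.682 to 1.94 CPM.

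Of the other mitotic genes not called, cyclin B2 (Ccnb2, log2 fold change 0.99, adjusted p = 0.114), the passenger protein survivin (Birc5, 0.87, 0.125), the microtubule-binding Nusap1 (0.81, 0.153) and the ubiquitin-conjugating enzyme of anaphase Ube2c (1.15, 0.111) had positive values with overlapping groups. In Nusap1 liver 7, at 0.584 CPM, was the lowest of all 8 livers, and the other BCL6LKOFXRKO livers, at 1.71 to 2.55 CPM, lay above all FXRKO livers. Without liver 7 (3 BCL6LKOFXRKO livers left) the count of mitotic genes called higher went from 8 to 13, with Cdk1, Plk1, Nusap1 and Ube2c among them. Birc5 spread widely among FXRKO livers (0.624, 1.37, 0.86 and 2.55 CPM) and passed only when FXRKO liver 4 was left out (log2 fold change 1.41, adjusted p = 0.022). The cytokinesis kinesins were near 0, Kif20a at 0.31 (95% interval −0.08 to 0.71) and Kif23 at 0.11 (−0.60 to 0.82), which was −0.05 with library totals alone. Kif20a shares 29.3% of its exon bases with Cdc23, and Ube2c 22.8% with Tnnc2, both on the opposite strand.

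Pttg1 encodes securin, which inhibits separase until anaphase. It was by far the most expressed mitotic gene per length, at 17.3 RPKM (CPM divided by the gene's length in kilobases, group mean) in FXRKO livers, against at most 1.36 RPKM for the other 24. It was at 30.2, 29.7, 29.3 and 27.4 CPM in FXRKO livers and at 23.1, 22.1, 24.2 and 25.7 CPM in BCL6LKOFXRKO livers, so that all BCL6LKOFXRKO livers lay below. The log2 fold change of −0.29 (SE 0.11, adjusted p = 0.0584) missed the threshold and was the only negative value among the mitotic genes. It passed with limma voom and sample quality weights (−0.32, adjusted p = 0.0188) and with library totals alone (−0.45, adjusted p = 0.00895).

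The 7 mitotic genes not tested were Ccnb1, Bub1, Aurkb, Cenpe, Cenpf, Espl1 and Ncapg, with at most 20 reads in any liver. They encode cyclin B1, checkpoint and passenger kinases, the centromere proteins E and F, separase and a condensin subunit. Fitted with no filter, their log2 fold changes ran from 0.72 (SE 0.52) for Espl1 to 1.23 (SE 0.46) for Aurkb, and the lowest adjusted p was 0.0625, for Aurkb. The condensin subunit Ncapg was at 0 to 0.322 CPM in FXRKO livers and at 0.364 to 0.705 CPM in BCL6LKOFXRKO livers, 9 reads against 22 in all. The groups did not overlap in CPM (two-sided exact permutation p = 0.029), and the adjusted p with no filter was 0.222. However, BCL6LKOFXRKO liver 6 and FXRKO livers 1, 3 and 4 had 3 reads each, so only library scaling set them apart. Among all genes tested after the filter, 16.1% had all BCL6LKOFXRKO livers above all FXRKO livers.

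**Figure D2:**
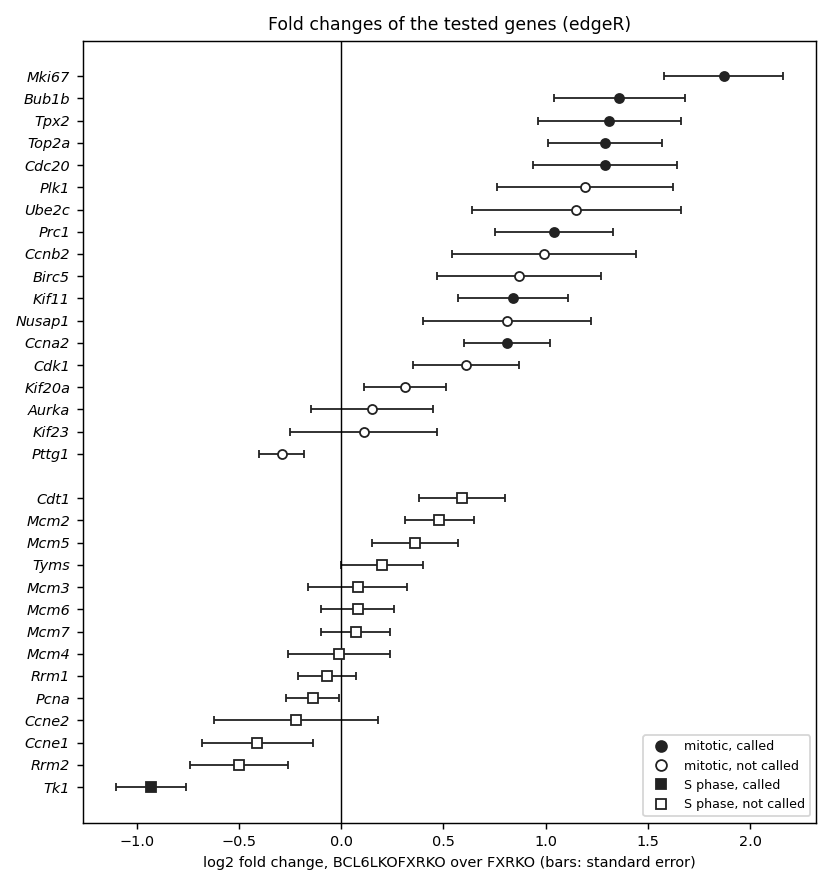
Log2 fold change with its standard error (bars) for the 32 genes tested in 4 against 4 livers, mitotic genes above (circles) and S-phase genes below (squares), filled where the adjusted p was under 0.05. Mitotic values run from −0.29 to 1.87 and S-phase values from −0.93 to 0.59.

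Among the S-phase genes 14 were tested, 13 were not called and 1 was lower (7.14%, against 13.5% of all genes tested). None was called higher, against 16.2% of all genes tested. At an unadjusted p under 0.05, 2 were higher and 1 lower, with DESeq2 0 were called higher and 1 lower, and with limma voom and sample quality weights 2 were called higher and 1 lower. Shares of all genes in these settings were not determined. The values of the 14 split into 7 positive and 7 negative with a median log2 fold change of 0.03, which was −0.13 with library totals alone. These genes were better counted than the mitotic ones: all but Ccne2 exceeded the filter in all 8 livers.

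The lower gene was Tk1, thymidine kinase 1, the salvage enzyme that phosphorylates thymidine for DNA synthesis. It was at 18.6, 23, 25.4 and 27.5 CPM in FXRKO livers and at 9.06, 13.1, 14 and 13.3 CPM in BCL6LKOFXRKO livers. Every BCL6LKOFXRKO liver lay below every FXRKO liver, with livers 1 and 5 the lowest of their genotypes. Tk1 (chromosome 11, 117815519 to 117826014) fell by 0.93 on the log2 scale (SE 0.17, adjusted p = 0.00114), from a mean of 23.6 ± 3.8 to 12.4 ± 2.2 CPM (SD, n = 4). With any 1 liver left out the value stayed between −1.04 and −0.81. Per length it was the most expressed of the S-phase genes in FXRKO livers, at 17.4 RPKM, and was at 9.09 RPKM in BCL6LKOFXRKO livers.

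Of the other nucleotide enzymes, Rrm1 and Rrm2 encode the large and small subunits of ribonucleotide reductase and Tyms encodes thymidylate synthase, which makes the thymidine nucleotide anew. Rrm1 was nearly level, at 8.87 to 10.1 CPM against 8.26 to 9.25 CPM (log2 fold change −0.07, 95% interval −0.34 to 0.21). Rrm2 was at 5.52, 8.62, 5.8 and 7.57 CPM in FXRKO livers and at 5.14, 6.19, 5.26 and 2.91 CPM in BCL6LKOFXRKO livers, with liver 8 the lowest (log2 fold change −0.50, SE 0.24, adjusted p = 0.136). Tyms was at 4.94 to 7.25 CPM against 5.75 to 8.81 CPM (log2 fold change 0.20, 95% interval −0.18 to 0.59).

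The licensing factors load the MCM helicase on DNA before S phase. Cdt1 was at 4.06, 3, 3.12 and 3.03 CPM in FXRKO livers and at 4.43, 4.25, 6.23 and 4.9 CPM in BCL6LKOFXRKO livers. The groups did not overlap, although FXRKO liver 1 came close, and the log2 fold change of 0.59 (SE 0.21, adjusted p = 0.0531) missed the threshold. Unlike in the mitotic genes called, liver 7 was here the highest of the 8. Cdc6, its partner in loading, was not tested, with 0 to 13 reads per liver.

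The 6 MCM helicase subunits were expressed at 1.16 to 4.69 RPKM in FXRKO livers. Mcm2 was at 8.74, 6.12, 6.66 and 7.76 CPM in FXRKO livers and at 12.1, 10.6, 8.38 and 10.1 CPM in BCL6LKOFXRKO livers. Only liver 7 lay below the highest FXRKO liver (log2 fold change 0.48, SE 0.17, adjusted p = 0.0525). Mcm5 had a log2 fold change of 0.36 (95% interval −0.05 to 0.77). Mcm3, Mcm4, Mcm6 and Mcm7 lay between −0.01 and 0.08, with 95% intervals within −0.49 and 0.55, and with library totals alone Mcm3 and Mcm6 were at −0.08 and Mcm7 at −0.10. Pcna, the sliding clamp of the polymerases, was at 14.5 to 17.2 CPM against 13.3 to 16.1 CPM (log2 fold change −0.14, 95% interval −0.40 to 0.12). Mcm2 and Cdt1 were the 2 genes that passed with limma voom (adjusted p = 0.0292 and 0.0465), where genes needed 10 or more counts in each liver (0.0459 and 0.0431) and without FXRKO liver 1 (0.0415 and 0.042), and Mcm2 also without liver 7 (0.0336).

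Cyclin E with CDK2 starts S phase. Ccne1 was at 3.33 to 5.87 CPM in FXRKO livers and at 2.52 to 4.63 CPM in BCL6LKOFXRKO livers (log2 fold change −0.41, SE 0.27, adjusted p = 0.273). Ccne2 was at 0.946 to 2.04 CPM against 0.545 to 2.12 CPM (log2 fold change −0.22, SE 0.40, adjusted p = 0.705). Pseudogenes of Ccnb1, Ccnb2, Pcna and Tyms are listed in the table. Only reads with a unique location were kept, so reads that match near-identical copies equally were left out of the counts. Of the exon bases of Ccne2 17.4% are shared with Ints8 on the opposite strand.

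Over the livers, the summed CPM of all 25 mitotic genes was 68.1, 60.1, 56.5 and 61.5 in FXRKO livers and 94.6, 93.4, 66.9 and 94.3 in BCL6LKOFXRKO livers. Livers 5, 6 and 8 were close to each other and liver 7 fell within the FXRKO range. The sum of the 15 S-phase genes was 114, 119, 107 and 119 CPM in FXRKO livers and 108, 106, 103 and 109 CPM in BCL6LKOFXRKO livers, which overlapped. Liver 7 was the lowest of its genotype in 15 of the 18 tested mitotic genes, including all 8 called higher, and in 4 of the 14 S-phase genes. It lay above all FXRKO livers in 8 of the 18, against 15, 16 and 16 for livers 5, 6 and 8. The median log2 ratio of the 18 genes to the FXRKO mean, with 0.5 CPM added, was 0.76, 1.01, 0.36 and 0.92 in livers 5 to 8.

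**Figure D3:**
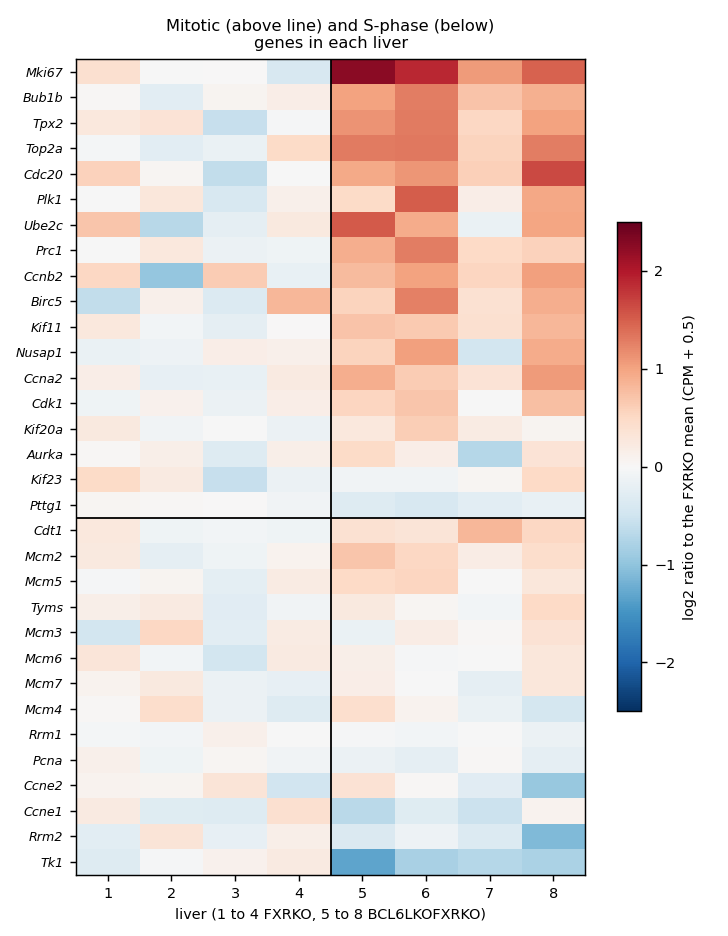
Log2 ratio of each liver's CPM, with 0.5 CPM added, to the FXRKO mean for the 18 mitotic genes (above the line) and 14 S-phase genes (below), livers 1 to 4 being FXRKO and 5 to 8 BCL6LKOFXRKO. Most mitotic genes are red in livers 5, 6 and 8 and paler in liver 7, whose median ratio was 0.36, and the S-phase genes show both colours, with Tk1 blue in livers 5 to 8.

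Some markers of several cell types other than hepatocytes moved with genotype, and their part in the mitotic values was not tested. For comparison, 16.2% of all genes tested were called higher and 13.5% lower, and these lists are short. Of 12 macrophage and monocyte markers 3 of 11 tested were higher, and their summed level was 300 to 411 CPM in FXRKO livers and 425 to 625 CPM in BCL6LKOFXRKO livers. Of 9 stellate cell and fibroblast markers 6 were higher (209 to 294 CPM against 418 to 536 CPM), and of 8 cholangiocyte markers 4 of 6 tested were higher (42.2 to 67.3 CPM against 94.2 to 196 CPM), with Cftr at no more than 3 reads in any liver. The cholangiocyte sum was mostly Spp1 (mean 43.4 against 87.2 CPM) and, in BCL6LKOFXRKO livers, Prom1 (0.969 against 30.6 CPM). Epcam was not called, and Sox9 had a negative value (log2 fold change −0.81, adjusted p = 0.0773). Of 8 endothelial markers 2 were higher (145 to 203 CPM against 209 to 267 CPM). The 10 T and NK cell markers summed to 3.12 to 3.88 CPM against 7.15 to 10.9 CPM and 1 was tested and higher, 1 of 2 B and plasma cell markers tested was higher (5.25 to 8.81 CPM against 9.95 to 16 CPM), and 2 of 3 neutrophil markers tested were higher (5.16 to 13.3 CPM against 14.9 to 29.5 CPM), with Ly6g at no more than 3 reads in any liver. Of 7 erythroid markers tested 4 were higher and 1 lower (736 to 1084 CPM against 968 to 1432 CPM). Hba-a1 and Hba-a2, both higher, are listed at nearly the same position with nearly equal counts (1535 and 1553 in liver 1). They are therefore not separate markers here, and their reads may enter the sum more than once. Of the 7 hepatocyte markers matched Alb and Asgr1 were higher and Ttr and Apob lower, and all 7 summed to 55307 to 67207 CPM against 144908 to 162477 CPM, mostly Alb. In liver 7 the macrophage markers summed to 455 CPM, the stellate markers to 445 CPM and the T and NK markers to 9.64 CPM, inside the range of the other BCL6LKOFXRKO livers, whereas the cholangiocyte markers, at 94.2 CPM, were the lowest of that genotype. Of the stellate sum in liver 7 Dcn made 238 CPM. Liver 7 was the lowest of its genotype, as in the mitotic genes, for Acta2 (6.62 CPM), Col1a1 (19.9 CPM) and Col3a1 (58.4 CPM), and for the macrophage marker Lyz2 (101 CPM). It was the highest of its genotype for Lrat, Reln and Dcn. The same held for the macrophage markers Adgre1 (24 CPM), Vsig4 (42.7 CPM) and Ly6c2 (0.779 CPM, not tested). Among the markers called higher, Lck (T cells) and Cldn4 exceeded the filter's level in 0 FXRKO livers, Krt19 in 1 and Prom1 and Ccr2 in 2. Each exceeded it in all 4 BCL6LKOFXRKO livers, so these entered the test through the group where they are high. With no filter their adjusted p was 0.00287 (Lck), 0.000183 (Cldn4), 0.0212 (Krt19), 0.00168 (Prom1) and 0.031 (Ccr2). These single markers were named after their values were seen.

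Beyond the 40 genes, 73 other genes of mitosis were in the table, of which 29 were tested, 4 were higher (13.8%, against 16.2% of all genes tested) and 1 lower (3.45%, against 13.5%). Their median log2 fold change was 0.41. Ckap2, a spindle protein, was at 0.322 to 0.875 CPM in FXRKO livers and at 1.71 to 2.72 CPM in BCL6LKOFXRKO livers (log2 fold change 1.86, SE 0.36, adjusted p = 0.00206). It passed the filter through the BCL6LKOFXRKO livers alone, and with no filter its adjusted p was 0.00146. Racgap1, of the centralspindlin complex of cytokinesis (1.14, SE 0.33, adjusted p = 0.0204), and Gtse1, which binds microtubules and restrains p53 (1.09, SE 0.30, adjusted p = 0.0167), were also higher without overlap. Racgap1 exceeded the filter's level in 1 FXRKO liver and Gtse1 in 3 (adjusted p with no filter 0.0286 and 0.015). The Racgap1 call was lost without liver 1, 2 or 8 (adjusted p 0.0518 to 0.0645). The remaining call was the phosphatase Cdc25b, named after its values were seen (0.98, adjusted p = 0.0464). Cks1b, the CDK subunit that helps to degrade p27, was at 4.73 to 6.04 CPM against 2.27 to 3.52 CPM and fell by 0.89 on the log2 scale (SE 0.22, adjusted p = 0.00848).

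Of 55 other replication genes 45 were tested, 5 were higher and 5 lower (11.1% each, against 16.2% and 13.5% of all genes tested), with a median of −0.12. Mcm10, which activates the helicase at origins, was at 79.3, 56.5, 109 and 66.2 CPM in FXRKO livers and at 9.27, 14.1, 20.8 and 20.2 CPM in BCL6LKOFXRKO livers. All BCL6LKOFXRKO livers lay far below (log2 fold change −2.27, SE 0.28, adjusted p = 0.000186). Pole, the catalytic subunit of the leading-strand polymerase (−1.15, SE 0.24, adjusted p = 0.00352), was lower too. Lig1, the ligase that joins Okazaki fragments, was at 2.75 to 3.54 CPM against 6.35 to 10.8 CPM (log2 fold change 1.37, SE 0.22, adjusted p = 0.000565). Uhrf1, which carries DNA methylation through replication (1.34, SE 0.29, adjusted p = 0.00446), and Pold1, the catalytic subunit of the lagging-strand polymerase (0.91, SE 0.21, adjusted p = 0.0056), were higher as well. Uhrf1 exceeded the filter's level in 1 FXRKO liver, and with no filter its adjusted p was 0.00743. Among the remaining calls, named after their values were seen, were Gins2 and Pold3 (higher) and Rfc5 and Rpa1 (lower). Gins2 exceeded the filter's level in 2 FXRKO livers, and with no filter its adjusted p was 0.0216.

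Of 24 transcription regulators of the cell cycle 21 were tested, 0 were higher and 5 lower (23.8%, against 13.5% of all genes tested), with a median of −0.19. At an unadjusted p under 0.05, 0 were higher and 9 lower. DESeq2, which tested all 24, called 6 lower and 1 higher, Mybl1 (named after its values were seen), and limma voom called 6 lower and 0 higher. Shares of all genes at the unadjusted p and with these tools were not determined, so these counts have no background to be read against. The activators of mitotic genes Foxm1 and Mybl2 were below the filter, at 0.215 to 1 and 0.284 to 0.43 CPM in FXRKO livers and at 0.705 to 1.63 and 0 to 0.705 CPM in BCL6LKOFXRKO livers. Rbbp4, a histone-binding subunit of MuvB and of several chromatin complexes, was at 113, 108, 114 and 105 CPM against 61.6, 59.8, 65.5 and 51.4 CPM. Rbbp4 fell by 0.88 on the log2 scale (SE 0.11, adjusted p = 5.2e-05), in groups far apart, and shares 18% of its exon bases with genes on the opposite strand.

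E2f7 and E2f8 encode the atypical E2F repressors. E2f7 was at 2.39, 1.5, 1.4 and 1.23 CPM in FXRKO livers and at 0.604, 0.607, 0.584 and 0.726 CPM in BCL6LKOFXRKO livers (log2 fold change −1.35, SE 0.34, adjusted p = 0.0101). It passed the filter through the FXRKO livers alone, and with no filter its adjusted p was 0.0149. E2f8 was at 19.7, 15.5, 14.8 and 12.7 CPM against 10.6, 14.4, 8.86 and 7.26 CPM, with overlap through liver 6 (log2 fold change −0.62, SE 0.21, adjusted p = 0.0409). The E2f8 call was lost when any of 6 livers was left out (adjusted p 0.0671 to 0.117). Tfdp2, a dimer partner of E2F factors, was at 14.3 to 17.5 CPM against 9.59 to 12.9 CPM (−0.55, SE 0.15, adjusted p = 0.0137). Nfyb, a subunit of the CCAAT-binding factor NF-Y, was at 24.1 to 36 CPM against 15.5 to 22.8 CPM (−0.50, SE 0.17, adjusted p = 0.0393), and the call was lost without liver 1, 3, 5 or 8 (adjusted p 0.0549 to 0.124).

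Of 14 G1 cyclins, kinases and CDK inhibitors 11 were tested, 5 were higher (45.5%, against 16.2% of all genes tested) and 1 lower, with a median of 0.11. The D cyclins pair with CDK4 and CDK6 to release E2F. Ccnd1 was at 38.1, 21.2, 24.1 and 26 CPM in FXRKO livers and at 55.4, 77.3, 51.4 and 68.3 CPM in BCL6LKOFXRKO livers, without overlap (log2 fold change 1.20, SE 0.18, adjusted p = 0.000409). It shares 23.4% of its exon bases with a gene on the opposite strand. Ccnd2 rose by 0.78 (SE 0.19, adjusted p = 0.00715), and Ccnd3 fell by 0.36 (SE 0.10, adjusted p = 0.0182), with an adjusted p of 0.0513 without liver 4 and 0.0528 without liver 7.

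The CDK inhibitors Cdkn1a, Cdkn2c and Cdkn1c rose as well. Cdkn1a, the CDK inhibitor p21, was at 11.9, 9, 1.72 and 3.97 CPM in FXRKO livers and at 37.6, 29.4, 13.8 and 31.4 CPM in BCL6LKOFXRKO livers. Liver 7 was again the lowest of its genotype, and close to FXRKO liver 1. The log2 fold change was 2.09 (SE 0.54, adjusted p = 0.0229), and the call was lost with no filter (adjusted p = 0.0558) and without liver 4, 5 or 8 (0.0539 to 0.0654). Cdkn2c, the CDK4 and CDK6 inhibitor p18, was at 2.87 to 5.68 CPM against 9.77 to 11.9 CPM (1.35, SE 0.21, adjusted p = 0.000353). Cdkn1c, p57, was at 0.537 to 1.7 CPM against 1.95 to 4.18 CPM (1.18, SE 0.37, adjusted p = 0.0293), and shares 30.7% of its exon bases with an antisense gene. Its adjusted p was between 0.0746 and 0.0956 without liver 2, 3 or 8. Cdkn1c exceeded the filter's level in 3 FXRKO livers, and with no filter its adjusted p was 0.0246.

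**Figure D4:**
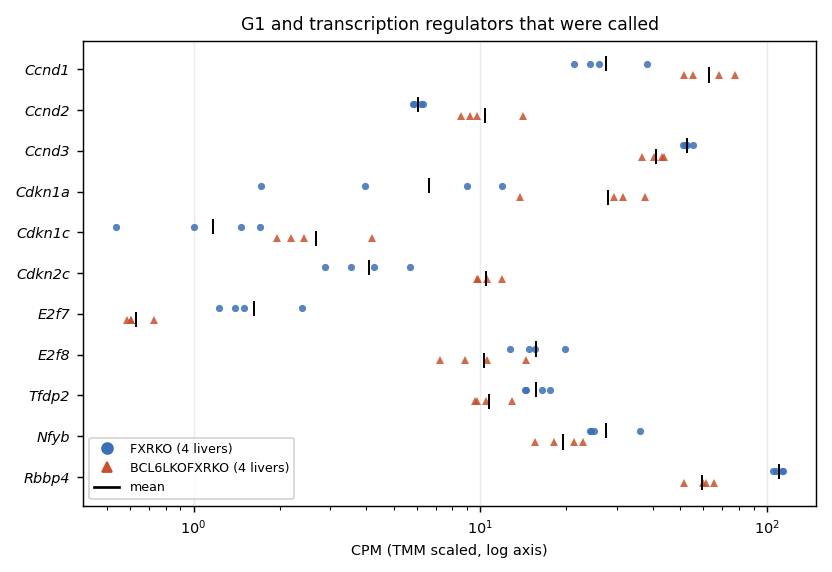
CPM (log axis) of the 11 G1 and transcription regulators that were called, with 1 point per liver (circles FXRKO, triangles BCL6LKOFXRKO) and a bar at the mean of 4 livers. Ccnd1, Ccnd2 and the CDK inhibitors Cdkn1a, Cdkn1c and Cdkn2c lie higher in BCL6LKOFXRKO livers, and Ccnd3 and the 5 transcription regulators lie lower, with overlap in E2f8.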

How the data were processed

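Liver polyA RNA of 4 FXRKO and 4 BCL6LKOFXRKO males was sequenced from stranded libraries as 100 bp single-end reads. The authors aligned reads to mm10 with STAR 2.5.2, keeping unique locations, and deposited raw counts per gene over exons from HOMER 4.10, beside each gene's length, used for RPKM. The counting command names no strand, so reads of overlapping antisense genes cannot be told apart.

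Groups follow the labels. Counts were fitted in R 4.3.3 with edgeR 4.0.16 (filterByExpr, TMM, robust quasi-likelihood) over all genes with Benjamini-Hochberg adjustment, and calls were made where the adjusted p lay under 0.05. The SE is the log2 fold change over the root of F. CPM used TMM factors. Exact tests were two-sided. Alternatives used DESeq2 1.42.0, limma 3.58.1 (voom), other scalings, filters and thresholds and each liver left out. The fit was tested on simulated data. The members and lists were chosen with earlier results of these data known. Named were all 40 members, in each direction the 3 called genes of lowest adjusted p of each other pathway list, and every regulator and G1 gene called. Of these, 1 gene is not reported here. Totals were 7586241 to 11839503 counts, so genes of a few reads are imprecise, and intervals cover these livers only. Overlaps were read from GENCODE on GRCm38. Replicate pairs differed by more than sampling noise (chi-square per degree of freedom 10 to 45.8).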

Additional observations from a re-analysis of the deposited data

Results flagged for a closer look

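Of 114 comparisons, 5 within a genotype had 1 liver whose gap to the nearest other liver, as a share of the range of the 4, exceeded the 95% critical value of Dixon's test, and chance gives about 6. The share was 0.959 for the summed mitotic genes, where liver 7 was at 66.9 CPM and livers 5, 6 and 8 at 93.4 to 94.6 CPM, and 0.955 for Top2a, where liver 7 was at 2.82 CPM and the others at 4.99 to 5.1 CPM. It was 0.889 for Cdt1 (FXRKO liver 1 at 4.06 CPM, the others at 3 to 3.12 CPM), 0.922 for Nfyb (FXRKO liver 1 at 36 CPM, the others at 24.1 to 25 CPM) and 0.842 for E2f7 (liver 8 at 0.726 CPM, the others at 0.584 to 0.607 CPM).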

How the results depend on the processing

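The 8 mitotic genes called higher became 4 of 8 tested where genes needed 10 or more counts in each liver, 3 at an adjusted p under 0.01 and 6 to 13 with each liver left out, 13 being without liver 7. Over all 40 genes the calls higher went from 8 to 3 at an adjusted p under 0.01 and to 6 to 14 with each liver left out. The 1 call lower became 2 with limma voom, 3 with library totals alone, 2 when the 50 most counted genes did not enter the normalization, and 1 to 2 with each liver left out. The 0 S-phase genes called higher became 2 with limma voom, 2 where genes needed 10 or more counts, and 0 to 2 with each liver left out (2 without liver 1, 1 without liver 7). Over those of the 18 tested mitotic genes that each setting kept, the median log2 fold change lay between 0.73 and 0.93 over the other settings and between 0.82 and 1.11 with each liver left out. Taken over all 25 mitotic genes with no filter, this median was 0.97. That of the S-phase genes turned from 0.03 to −0.13 with library totals alone. Genes near 0, not called under any setting, changed sign: with library totals alone Aurka was at −0.01, Kif23 at −0.05, Mcm3 at −0.08, Mcm6 at −0.08 and Mcm7 at −0.10, with limma voom Mcm3 was at −0.02 and Mcm4 at 0.11, and with at least 10 counts Mcm4 was at 0.01. With each liver left out they ranged from −0.01 to 0.38 (Aurka), −0.54 to 0.06 (Ccne2), −0.12 to 0.37 (Kif23), −0.08 to 0.28 (Mcm3), −0.20 to 0.16 (Mcm4), −0.06 to 0.18 (Mcm6) and −0.02 to 0.16 (Mcm7). Mki67, Top2a, Ccna2, Cdc20, Bub1b, Tpx2 and Tk1 kept their calls wherever they were tested, except Ccna2, Cdc20 and Tpx2 at an adjusted p under 0.01. The cause of these changes was not tested. The added filter on the mean was chosen after seeing the data. No paired analysis was possible because the labels give the livers no pairs across genotypes. Genes under about 10 reads per liver are limited by depth.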
